A study of Homo sapiens with 10 samples.

Results

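Small RNA host genes are transcribed into RNAs that carry a microRNA or a small nucleolar RNA, mostly in an intron. They were taken here as the genes whose symbol starts with SNHG, the 36 genes whose symbol starts with MIR and ends in HG, GAS5 and DLEU2. This gave 49 of the 19775 genes on the array that a probe set with exactly 1 gene symbol represents, 11 of them SNHG genes. A gene with several such probe sets was represented by the brightest, and the 49 genes had 79 of them in all.

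Small nucleolar RNAs guide the ribose methylation and pseudouridylation of ribosomal RNA, and they are released when the spliced intron of their host is trimmed. MicroRNAs are cut out of their host transcript by DROSHA and then by DICER1, and they repress messenger RNAs that pair with their seed. Many small nucleolar RNA hosts start with a pyrimidine tract, as ribosomal protein genes do, and their spliced RNA is often removed by nonsense-mediated decay. The probe sets measured host transcripts, not the small RNAs.

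The study sorted cultured human gastric cancer cells by how much of a DNA-binding Hoechst dye they kept, and it asked how the expression of the dye-excluding cells differs. RNA of 4 arrays came from side population cells, which keep little dye, of 4 arrays from non-side population cells, which keep it, and of 2 arrays from unsorted cells. AGS and MKN 45 are established gastric carcinoma lines, and the origin label of every array names both. The source label names AGS on 8 of the 10 arrays and no line on side population replicates a and b. The labels give no treatment or genotype beyond the line. Neither separate cultures for the replicates nor staining or sorter passage of the unsorted cells is given in the labels used here, so the p-values reflect sample-to-sample spread that may be only technical.

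Values are linear intensities in arbitrary units, already scaled by the authors so that the trimmed mean of each array is about 500. Array medians ran from 58.7 to 85.4. Of 11 epithelial markers, 10 were above the median of every array. Of 4 measured blood markers and 4 endothelial markers, 0 were above it on every array, and PTPRC, CD3E, VWF, CDH5 and KDR were below it on every array. Of 6 fibroblast markers, COL1A1 and PDGFRA were above the median on every array and COL1A2, COL3A1 and LUM below it. Side population replicate a had an actin 3′ to 5′ signal ratio of 3.34, against 0.987 to 1.28 on the other arrays. The 18S control probe set was below 1000 on side population replicate d, non-side population replicate c and both unsorted arrays, and the other 6 arrays had 22182 to 33704.

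The microRNAs of some hosts are shown because they are what these transcripts carry. Among the microRNA hosts bright enough to test, MIR7-3HG, MIR570HG and MIR550A3HG had the largest differences from unsorted cells. MicroRNAs of DLEU2 and MIR200CHG share a seed with another of those shown. RefSeq placed a microRNA gene within 36 of the 48 host genes it matched, small nucleolar RNA genes within 13, both within 3 and neither within 2. The mature sequences below are RefSeq's (GRCh38.p14), 5′ to 3′, with the seed, bases 2 to 8, in capitals. MIR7-3HG holds miR-7-5p (chr19:4770700-4770723, plus strand), MIR570HG holds both arms of miR-570 (chr3:195699425-195699446 and chr3:195699460-195699481, plus strand), and MIR550A3HG holds miR-550a-3p (chr7:29680748-29680769, minus strand). DLEU2 holds miR-15a-5p (chr13:50049167-50049188) and miR-16-5p (chr13:50049027-50049048), both on the minus strand, and MIR200CHG holds miR-200c-5p (chr12:6963703-6963724, plus strand).
hsa-miR-7-5p: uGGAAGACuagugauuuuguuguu
hsa-miR-570-5p: aAAGGUAAuugcaguuuuuccc
hsa-miR-570-3p: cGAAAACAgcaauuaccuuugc
hsa-miR-550a-3p: uGUCUUACucccucaggcacau
hsa-miR-200c-5p: cGUCUUACccagcaguguuugg
hsa-miR-15a-5p: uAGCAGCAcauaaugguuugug
hsa-miR-16-5p: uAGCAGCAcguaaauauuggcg

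Among 19 mature microRNAs of the hosts bright enough to test there were 17 different seeds. The miR-15a-5p and miR-16-5p of DLEU2 share the seed AGCAGCA, and miR-550a-3p and miR-200c-5p share GUCUUAC although they come from different hosts. RefSeq also gives the miR-7-5p sequence for MIR7-1, which lies in HNRNPK, a gene for an abundant RNA-binding protein. Of the others shown, miR-16-5p is also given for MIR16-2, miR-550a-3p for MIR550A2 and miR-570-5p for MIR548AI.

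Most host genes were dim on these arrays. Of the 49, 14 were above the array median on all 10 arrays, 20 were below it on all 10 and 15 were mixed. Genes whose mean log2 value reached the median of all genes, an intensity of 148.5, were tested, which kept 14 host genes: SNHG17, SNHG32, SNHG19, SNHG33, SNHG18, GAS5, DLEU2, MIR550A3HG, MIR31HG, MIR7-3HG, MIR200CHG, MIR1915HG, MIR570HG and MIR9-1HG. MIR9-1HG, with a mean of 159.95, lay just inside this limit, and MIR3936HG, with 142, just outside. The 35 host genes left out, 6 SNHG and 29 MIR genes, had intensities of 0.5 to 284. In a fit without the limit, limma called 0 of these 35 in each of the 3 comparisons, with 3 in each at an unadjusted p under 0.05, where it called 0% of all genes between side population and non-side population cells, 0.819% between side population and unsorted cells and 1.59% between non-side population and unsorted cells.

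**Figure D1:**
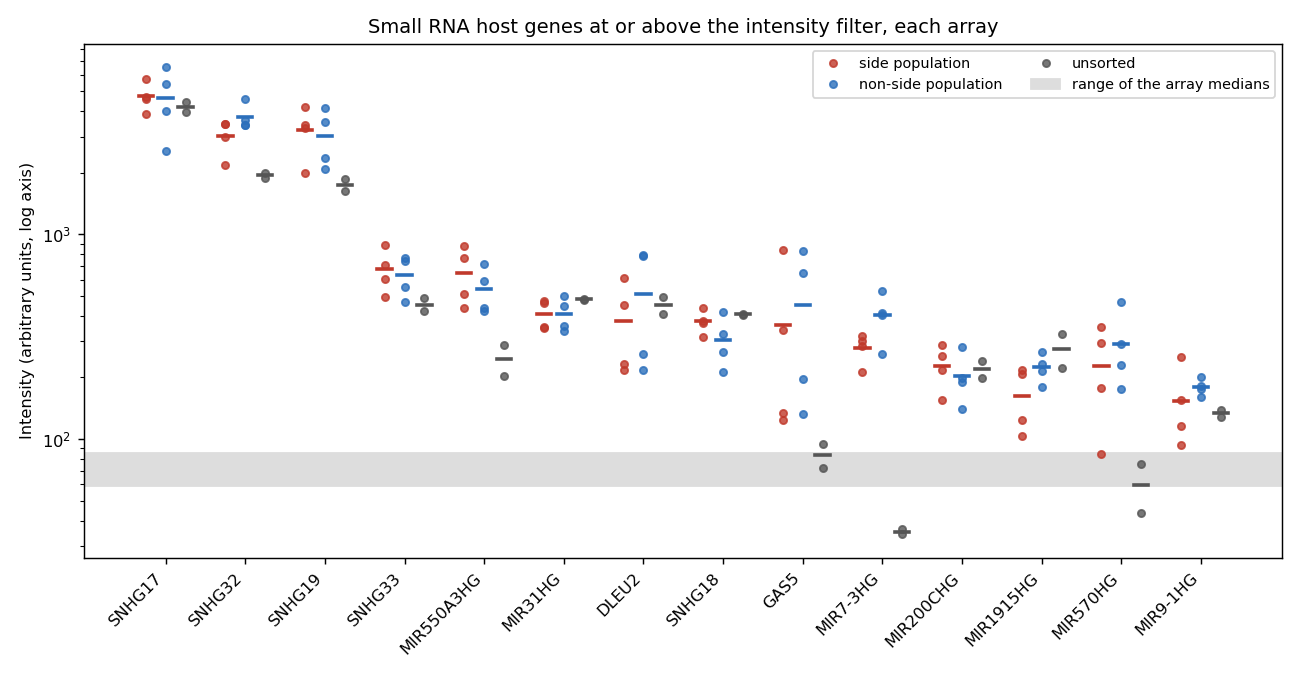
Intensity (log axis, arbitrary units) of the 14 tested host genes on each array, with side population cells on the left, non-side population cells in the middle and unsorted cells on the right of each gene. Points are arrays, short lines are group means and the grey band is the range of the array medians. MIR7-3HG lies below the band on both unsorted arrays, at 36.3 and 34.2, and above it on the 8 sorted arrays.

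Comparing side population with non-side population cells asks whether host genes follow dye exclusion. None of the 14 was called different: limma gave adjusted p-values of 0.997 or more, and 0 of the 14 had an unadjusted p under 0.05. Over all 9888 genes tested, 0 were called (0%), 430 had an unadjusted p under 0.05 (4.35%) and the smallest adjusted p was 0.05001. Log2 fold changes of the host genes ran from -0.50 to 0.33, with 6 positive and 8 negative and a median of -0.15, beside a median of 0.05 over all genes tested. The arrays of the groups overlapped for each of the 14 host genes, where 1.59% of all genes had groups that did not overlap.

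Both groups of sorted cells were then set against unsorted cells. The 2 comparisons share the unsorted arrays, so their values are given side by side and are not independent of each other. The intensity limit bears on these counts: 4 of the 14, GAS5, MIR570HG, MIR7-3HG and MIR9-1HG, had an unsorted mean under it, so that they passed through sorted arrays, where 4.04% of all genes tested had such a mean. Both host genes called are among these 4, and the counts and medians over the 14 are therefore descriptions. In side population cells limma called 1 of 14 host genes (7.14%), MIR7-3HG, against 2.45% of all genes tested. In non-side population cells it called 2 of 14 (14.3%), MIR7-3HG and MIR570HG, against 3.66%. Each of these calls was for a higher level in the sorted cells. At an unadjusted p under 0.05 there were 6 of 14 host genes for side population cells and 6 of 14 for non-side population cells, where all genes gave 17.2% and 19.6%. The median log2 fold change of the 14 was 0.35 for side population cells and 0.43 for non-side population cells relative to unsorted cells, beside 0.04 and -0.01 over all genes tested. With side population replicate a and non-side population replicate c both left out, 1 host gene was called for side population and 3 for non-side population cells. Over all 9888 genes tested, that refit called 196 and 677, where the reported fit called 242 and 362.

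Group ranges without overlap were frequent in general. Side population arrays lay above both unsorted arrays for 7 of 14 host genes and below them for 2, MIR1915HG and MIR31HG, where 36.8% of all genes tested had groups that did not overlap in either direction. Non-side population arrays lay above both unsorted arrays for 7 of 14 and below them for 0, where all genes gave 31.9%. GAS5, MIR550A3HG, MIR570HG, MIR7-3HG, SNHG19 and SNHG32 were among the 7 in each comparison.

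Other measures moved with sorted against unsorted cells. The summed intensity of the 6 fibroblast markers was 2557 to 3260 on side population, 2130 to 2711 on non-side population and 3706 to 4728 on unsorted arrays. Of these markers, COL1A2, COL3A1 and LUM were below the median of every array, so the sum came mostly from the others. Both unsorted arrays were also among the 4 with a low 18S control. Their medians of 60.9 and 58.7 were below those of the sorted arrays, 62.8 to 85.4. The part of these in the differences from unsorted cells was not tested. In such bulk samples, fewer cells with a transcript and less transcript per cell cannot be told apart.

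**Figure D2:**
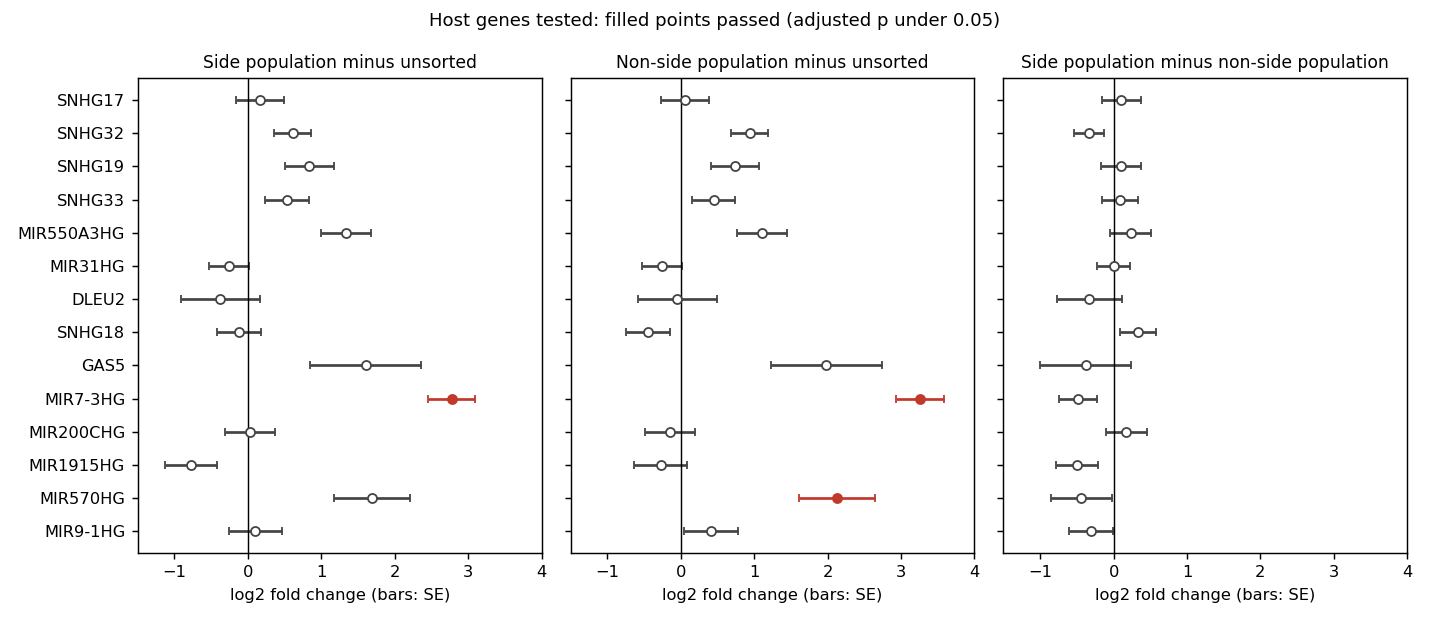
Log2 fold change with its standard error for the 14 tested host genes in the 3 comparisons, from the fit over all genes. Filled points passed an adjusted p under 0.05: MIR7-3HG for side population minus unsorted, and MIR7-3HG and MIR570HG for non-side population minus unsorted. No point is filled for side population minus non-side population.

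MIR7-3HG, the host of miR-7-3, had intensities of 213.5, 320, 285 and 301 in side population replicates a to d, 260.1, 529.6, 405 and 412 in non-side population replicates a to d, against 36.3 on unsorted replicate a and 34.2 on unsorted replicate b. Each sorted array was above each unsorted array. Group means with SD were 279.8 ± 46.5 for the 4 side population arrays, 402 ± 110 for the 4 non-side population arrays and 35.2 ± 1.5 for the 2 unsorted arrays. The log2 fold change was 2.77 ± 0.32 (SE) for side population minus unsorted (limma adjusted p 0.00104). For non-side population minus unsorted it was 3.26 ± 0.32 (limma adjusted p 0.000463).

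The unsorted values of MIR7-3HG lay below the medians of those arrays. With values under an array's median raised to that median, its log2 differences from unsorted cells were 2.10 for side population cells and 2.59 for non-side population cells. The call held in every refit of these 2 comparisons that tested the gene, with adjusted p-values of at most 0.0277 by limma. The sorted arrays with a low 18S control gave 301 in side population replicate d and 405 in non-side population replicate c, within the range of the other sorted arrays. Both unsorted arrays were low in this control too, and its part in the difference was not tested. Side population minus non-side population gave -0.48 ± 0.26 (limma adjusted p 0.997), and these groups overlapped.

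Other probe sets of a gene were tested in a separate fit, over every probe set with 1 symbol and without the intensity limit. In it the brighter MIR7-3HG probe set passed in both comparisons with unsorted cells (limma adjusted p 0.00516 for side population and 0.00261 for non-side population cells). A second, dimmer MIR7-3HG probe set did not show the difference. It averaged 39.3 over the 10 arrays, and its log2 fold changes were 0.42 ± 0.84 for side population and 0.63 ± 0.84 for non-side population minus unsorted cells, with adjusted p-values of 0.873 and 0.778 by limma. Its values ranged from 10.4 to 85.3 in side population, 8.7 to 64.8 in non-side population and 7 to 51.8 in unsorted cells. The HNRNPK transcript, which carries the same mature microRNA at another locus, ranged from 15738 to 20293 in side population cells, from 13552 to 22360 in non-side population cells and from 20663 to 21630 in unsorted cells. All 4 side population arrays lay below both unsorted arrays, and non-side population arrays overlapped both other groups. Its log2 fold changes were -0.21 ± 0.24 for side population and -0.15 ± 0.24 for non-side population minus unsorted cells, with adjusted p-values of 0.708 and 0.778 by limma.

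MIR570HG, the host of miR-570, had 351, 295, 84.1 and 178 in side population replicates a to d, 175, 229, 467 and 291.5 in non-side population replicates a to d, against 43.3 on unsorted replicate a and 75.8 on unsorted replicate b. Sorted and unsorted arrays did not overlap, though side population replicate c lay close to unsorted replicate b. The log2 fold change for non-side population minus unsorted was 2.13 ± 0.51 (limma adjusted p 0.0349). For side population minus unsorted it was 1.69 ± 0.51 (limma adjusted p 0.0976). With values under an array's median raised to that median, the log2 differences from unsorted cells were 1.47 for side population cells and 1.91 for non-side population cells.

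The MIR570HG call was not stable. It ended without either unsorted array (adjusted p 0.472 without replicate a and 0.157 without replicate b), without non-side population replicate d (0.0704), after quantile normalization (0.0527) and without the intensity limit (0.0643), all by limma. In the fit over every probe set with 1 symbol and without the limit, the MIR570HG probe set described here also missed the threshold (limma adjusted p 0.0754 for non-side population cells). With every such probe set but the limit kept, it passed there (limma adjusted p 0.04635). A second MIR570HG probe set gave -0.30 ± 0.49 for side population and 0.84 ± 0.49 for non-side population minus unsorted cells. It was called in neither comparison without the limit. In side population minus non-side population the 4 replicate letters disagreed: replicates a and b were higher in side population cells, and replicates c and d lower.

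MIR550A3HG, the host of miR-550a-3, had 877, 763, 435 and 514 in side population replicates a to d, 438.5, 594, 716 and 421 in non-side population replicates a to d, against 202 on unsorted replicate a and 289.5 on unsorted replicate b. All sorted arrays were above both unsorted arrays. Neither comparison passed: the log2 fold change was 1.34 ± 0.34 for side population minus unsorted (adjusted p 0.0520 by limma) and 1.11 ± 0.34 for non-side population minus unsorted (adjusted p 0.0834 by limma). The first of these passed in 7 of 23 alternatives. Its second, dimmer probe set gave 0.20 ± 0.41 for side population and 0.50 ± 0.41 for non-side population minus unsorted cells.

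The other microRNA hosts did not pass in any comparison. MIR1915HG had 217, 207, 124 and 103 in side population replicates a to d, 233, 267, 179.8 and 214.5 in non-side population replicates a to d, against 222 on unsorted replicate a and 327 on unsorted replicate b. All 4 side population arrays were below both unsorted arrays (log2 fold change -0.77 ± 0.36, limma adjusted p 0.281), and non-side population and unsorted arrays overlapped. Of its 2 other probe sets, 1 was lower and 1 higher in each group of sorted cells relative to unsorted cells, and neither was called.

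MIR31HG, the host of miR-31, had 348, 461.5, 351 and 472 in side population replicates a to d, 446.5, 498, 357 and 336 in non-side population replicates a to d, against 485 on unsorted replicate a and 479.7 on unsorted replicate b. Its log2 fold change was -0.25 ± 0.27 for both groups of sorted cells relative to unsorted cells, and -0.0007 ± 0.22 for side population minus non-side population. MIR200CHG, the host of miR-200c and miR-141, which repress the transcription factors ZEB1 and ZEB2 in epithelial cells, ranged from 155 to 288 in side population, 141 to 281 in non-side population and 198 to 240.3 in unsorted cells. MIR9-1HG, the host of miR-9-1, ranged from 93.2 to 251 in side population, 160.8 to 200.1 in non-side population and 128 to 138 in unsorted cells. The groups of MIR200CHG overlapped in all 3 comparisons.

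Among the small nucleolar RNA hosts, SNHG17 was the brightest probe set but did not separate the groups. It holds 5 small nucleolar RNA genes in RefSeq, SNORA71A to SNORA71D among them, which guide pseudouridylation. It had 5761, 4708.5, 4608 and 3873 in side population replicates a to d, 5415, 6545, 2547 and 4026 in non-side population replicates a to d, against 4450.4 on unsorted replicate a and 3945 on unsorted replicate b. The groups overlapped in all 3 comparisons, with log2 fold changes of 0.16 ± 0.32 for side population and 0.06 ± 0.32 for non-side population minus unsorted cells. Its second probe set gave -0.61 ± 0.28 for side population and -0.39 ± 0.28 for non-side population minus unsorted cells and was not called.

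SNHG32, the host of SNORD48 and SNORD52, had 3448, 2175, 3466 and 2973 in side population replicates a to d, 4586, 3614, 3408 and 3438 in non-side population replicates a to d, against 2004 on unsorted replicate a and 1880 on unsorted replicate b. Each sorted array was above both unsorted arrays. The log2 fold change was 0.61 ± 0.25 for side population minus unsorted (limma adjusted p 0.225). For non-side population minus unsorted it was 0.94 ± 0.25 (limma adjusted p 0.0547), which passed in 8 of 24 alternatives.

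SNHG19, the host of SNORD60, had 4192, 3316, 3420 and 1992 in side population replicates a to d, 3529.9, 4136, 2349.8 and 2095 in non-side population replicates a to d, against 1865 on unsorted replicate a and 1629 on unsorted replicate b. Again each sorted array was above both unsorted arrays, side population replicate d by the least. The log2 fold changes of 0.84 ± 0.33 for side population and 0.74 ± 0.33 for non-side population minus unsorted cells did not pass, with adjusted p-values of 0.199 and 0.236 by limma.

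SNHG33, which holds genes of the SNORA63 family, had 709, 494, 892 and 605 in side population replicates a to d, 765, 743, 466.5 and 554.5 in non-side population replicates a to d, against 422 on unsorted replicate a and 486 on unsorted replicate b. Side population arrays were all above the unsorted ones, and non-side population replicate c fell between them. The log2 fold changes were 0.54 ± 0.30 for side population and 0.45 ± 0.30 for non-side population minus unsorted cells, with adjusted p-values of 0.382 and 0.440 by limma. SNHG18, the host of SNORD123, ranged from 316 to 439 in side population, 213 to 418 in non-side population and 403 to 410.1 in unsorted cells, and its groups overlapped in all 3 comparisons.

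GAS5 is named for its accumulation in growth-arrested cells and holds 11 small nucleolar RNA genes in RefSeq. Its only probe set with 1 symbol had 341, 843, 133 and 123 in side population replicates a to d, 646, 830.2, 196 and 132 in non-side population replicates a to d, against 72.0 on unsorted replicate a and 95.1 on unsorted replicate b. Each sorted array was above both unsorted arrays, but the sorted arrays differed among themselves by more than that gap: replicates a and b were the higher pair in both groups of sorted cells. The log2 fold changes had large standard errors, 1.60 ± 0.76 for side population and 1.98 ± 0.76 for non-side population minus unsorted cells, and adjusted p-values of 0.296 and 0.164 by limma. With sorted letters a and b alone they were 2.61 and 3.05 (limma adjusted p 0.00719 and 0.00323), and with c and d alone 0.60 and 0.91 (0.295 and 0.101). This division was picked on these data, so its p-values are no separate evidence.

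DLEU2, the host of miR-15a and miR-16-1, lies in a region often deleted in chronic lymphocytic leukaemia. Its brightest probe set showed the same division by letter. The gene was outside the rule for naming genes and was chosen for this after its values were seen. It had 452, 612, 217 and 233 in side population replicates a to d, 787, 789.7, 218 and 260.5 in non-side population replicates a to d, against 408 on unsorted replicate a and 494.5 on unsorted replicate b. Replicates c and d of both groups of sorted cells were below both unsorted arrays. Over all arrays its log2 fold changes relative to unsorted cells were -0.38 ± 0.54 for side population cells and -0.05 ± 0.54 for non-side population cells. With letters a and b alone they were 0.23 and 0.80 (limma adjusted p 0.560 and 0.0374), and with c and d alone -0.98 and -0.90 (0.0389 and 0.0466). The direction on this probe set thus differed between the letters. DLEU2 and the division were both picked on these data, so these p-values are no separate evidence. Of its 6 other probe sets, 5 were higher and 1 lower in each group of sorted cells than in unsorted cells, and 0 were called by limma. The division by letter was not shared by all of them. The brightest of these 6 had 133, 199.5, 51.7 and 77.7 in side population replicates a to d. In non-side population replicates a to d it had 130, 113, 248 and 216, higher on c and d. Another, averaging 46.15, showed the division in both groups of sorted cells.

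**Figure D3:**
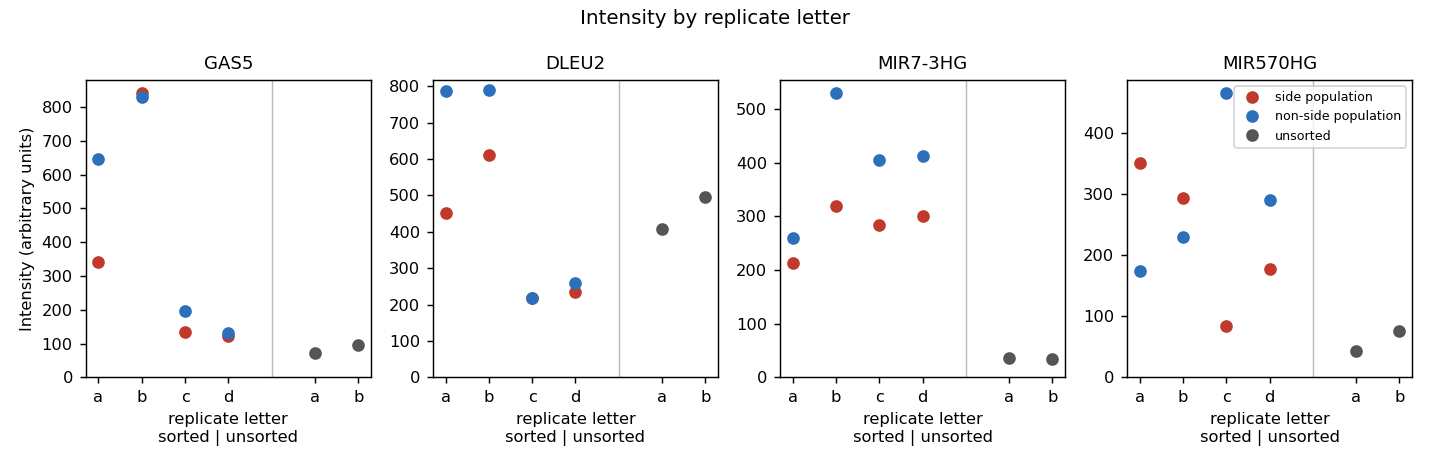
Intensity (arbitrary units, linear axis from 0) of GAS5, DLEU2, MIR7-3HG and MIR570HG by replicate letter, side population and non-side population arrays left of the grey line and unsorted arrays right of it. The GAS5 and DLEU2 probe sets shown are high on sorted arrays a and b and low on c and d. MIR7-3HG is above its unsorted values of 36.3 and 34.2 on all 8 sorted arrays.

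The starts of 4 small nucleolar RNA hosts are shown because a pyrimidine tract at the first base is the sequence feature these genes are known to share with ribosomal protein genes. They are the 3 tested hosts that have it, and SNHG17, the brightest, which does not. Each window holds 10 bases before the RefSeq start and 20 bases from it (GRCh38.p14), 5′ to 3′ on the gene's strand. Capitals mark a run of C and T that opens with C at the start itself and holds at least 4 more pyrimidines. The windows are chr6:31834906-31834935 (plus) for SNHG32, chr16:2155339-2155368 (minus) for SNHG19, chr5:9546190-9546219 (plus) for SNHG18 and chr20:38435309-38435338 (minus) for SNHG17.
SNHG32: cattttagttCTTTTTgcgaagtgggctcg
SNHG19: ccgcccctgtCTTTTCggggtcgagtccga
SNHG18: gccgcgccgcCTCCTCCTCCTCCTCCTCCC
SNHG17: gtgtggcctcagtccttcgccgtccctcgc

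Such a start was found in 4 of 12 windows of the SNHG genes and GAS5 (33.33%) and in 0 of 42 windows of the other host genes. It was found in 4.07% of all 35116 RefSeq windows and in 54.32% of 81 windows of ribosomal protein genes. SNHG32 and SNHG19, with the tract, had all sorted arrays above both unsorted arrays. SNHG18, with the longest run, did not, and SNHG17, without it at this start, did not either. The GAS5 window has no tract at its annotated start, and all sorted arrays of GAS5 were above both unsorted arrays. SNHG33, also without it, had all side population arrays above them. The remaining window with a tract was that of SNHG4, too dim to test. In the fit without the limit, SNHG4 gave log2 fold changes of -0.84 ± 0.60 for side population and -0.22 ± 0.60 for non-side population minus unsorted cells. The match is a description of letters at annotated starts, and the starts used in these cells were not measured.

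**Figure D4:**
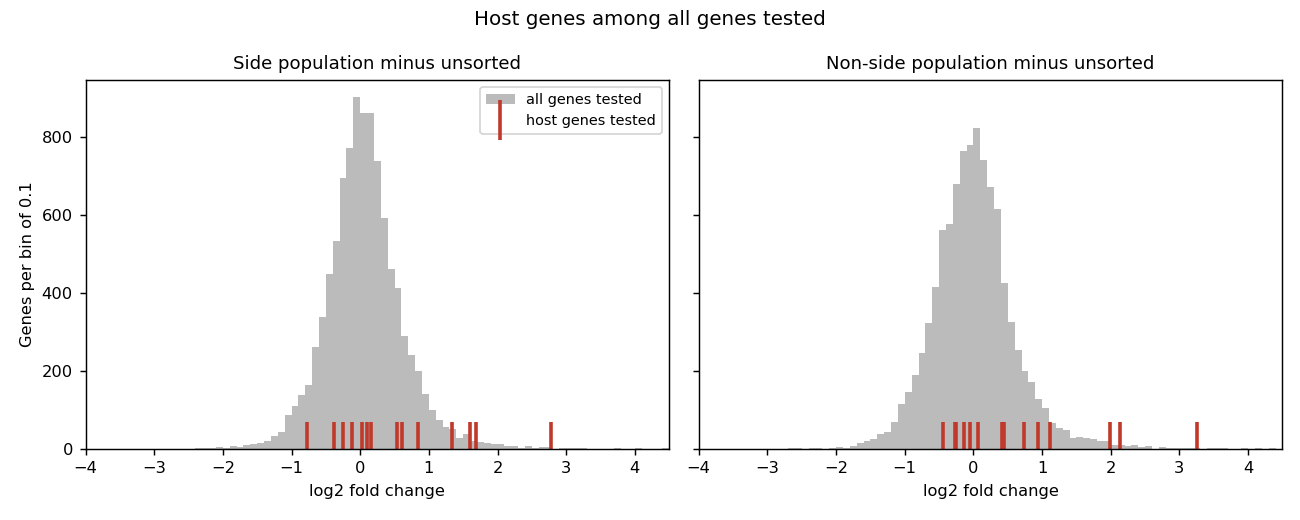
Distribution of log2 fold changes of all 9888 genes tested (grey, genes per bin of 0.1), with the 14 tested host genes as red ticks, for side population minus unsorted (left) and non-side population minus unsorted (right). The ticks span -0.77 to 2.77 on the left and -0.45 to 3.26 on the right, with medians of 0.35 and 0.43.

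Probe sets whose several symbols include a host gene cannot be assigned to 1 gene and were kept apart. There were 66 of them, covering 36 host symbols, and 42 were bright enough to test in a fit over every probe set of the array. For side population minus non-side population limma called 0 of the 42, and 0% of all 27338 probe sets. For side population minus unsorted it called 5 of 42, all higher in side population cells, against 3.31% of all probe sets. For non-side population minus unsorted it called 6 of 42, all higher in non-side population cells, against 5.79%. Several of these probe sets can report the same host gene, so the counts are of probe sets and not of genes. Whether those called passed the intensity limit only through sorted arrays was not tested. Median log2 fold changes of the 42 were -0.06, 0.42 and 0.43 in the order of the comparisons above, beside -0.01, 0.07 and 0.06 over all probe sets.

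Genes that make, load or remove host transcripts and small RNAs were mostly not called. Over all genes tested, 0% were called between the sorted groups, and 2.45% and 3.66% for side population and non-side population minus unsorted. With shares that low, 0 calls in lists of this length say little. Of the 8 box C/D and H/ACA core proteins listed, 6 were tested and 0 passed in any comparison. FBL, the ribose methyltransferase, had a log2 fold change of 0.22 ± 0.28 for non-side population minus unsorted (limma adjusted p 0.721). In the assembly factors of these particles 0 of 10 passed. Neither list had a gene at an unadjusted p under 0.05. In nonsense-mediated decay 16 genes were listed, 10 had a probe set with 1 symbol and 9 were tested. Of these 9, 0 passed, with 1 at an unadjusted p under 0.05 for side population minus non-side population, 2 for side population minus unsorted and 1 for non-side population minus unsorted, where all genes gave 4.35%, 17.2% and 19.6%. Among these, SMG8, a subunit of the SMG1 kinase complex, averaged 502 in non-side population and 1028 in unsorted cells, a log2 fold change of -1.04 ± 0.28 (limma adjusted p 0.0552).

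In microRNA processing and effector proteins 1 of 14 tested genes passed for side population minus unsorted and for non-side population minus unsorted, and 0 for side population minus non-side population, with 0 there at an unadjusted p under 0.05. A share of 1 in 14 stands beside 2.45% and 3.66% of all genes called against unsorted cells. The gene was TNRC6B, a scaffold that binds Argonaute proteins and recruits deadenylases. It had 336, 297, 258 and 206 in side population replicates a to d, 327, 413, 272 and 287 in non-side population replicates a to d, against 47.2 on unsorted replicate a and 127 on unsorted replicate b, so unsorted replicate a lay below the others and both unsorted values were under the intensity limit. The log2 fold change was 1.71 ± 0.37 for side population minus unsorted (adjusted p 0.0274 by limma) and 1.96 ± 0.37 for non-side population minus unsorted (adjusted p 0.0117 by limma). Without unsorted replicate a the values were 1.06 and 1.30, with adjusted p-values of 0.564 and 0.337 by limma, and the call for side population cells also ended without side population replicate a (0.0689), b (0.0554) or c (0.0517), with that replicate a and non-side population replicate c both left out (0.0606), with only arrays labelled AGS (0.129), after quantile normalization (0.0648) and without the intensity limit (0.0578). In the fit over every probe set with 1 symbol and without the limit, this probe set passed for non-side population cells (0.0295) and not for side population cells (0.0648). The 6 other probe sets of TNRC6B were not called in it. Their directions differed: log2 fold changes ran from -0.22 to 1.31 for side population and from -0.61 to 0.55 for non-side population minus unsorted cells. The next brightest gave 0.32 ± 0.42 for side population and -0.49 ± 0.42 for non-side population minus unsorted cells. AGO2, the Argonaute with slicer activity, averaged 992 in side population and 1707 in unsorted cells, a log2 fold change of -0.80 ± 0.26 that did not pass (adjusted p 0.125 by limma).

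Protein-coding genes that also host small RNAs gave a similar picture. Of 32 listed small nucleolar RNA hosts, 13 had a probe set with 1 symbol and 12 were tested. Of these 12, 0 passed, with 1 at an unadjusted p under 0.05 in each comparison with unsorted cells and 0 between the sorted groups. All genes gave 17.2% and 19.6% relative to unsorted cells and 4.35% between the sorted groups at that threshold. RPL27A, a ribosomal protein gene, averaged 3095 in side population, 2766 in non-side population and 364 in unsorted cells, with log2 fold changes of 2.62 ± 0.94 and 2.30 ± 0.94 relative to unsorted cells that did not pass (adjusted p 0.156 and 0.196 by limma). Of 23 tested microRNA hosts 1 passed in each comparison with unsorted cells, beside 2.45% and 3.66% of all genes, and 0 passed between the sorted groups, where 1 had an unadjusted p under 0.05.

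The microRNA host that passed was LPP, a focal adhesion protein gene that holds miR-28. It had 2907, 2492, 1926 and 1350.1 in side population replicates a to d, 2199.7, 1969.7, 1596 and 1669 in non-side population replicates a to d, against 749.7 on unsorted replicate a and 801 on unsorted replicate b. Each sorted array was above both unsorted arrays. The log2 fold change was 1.42 ± 0.30 for side population and 1.24 ± 0.30 for non-side population minus unsorted cells, with adjusted p-values of 0.0250 and 0.0339 by limma. Without either unsorted array these calls ended, with adjusted p-values between 0.226 and 0.390 by limma. The side population call also ended without side population replicate a (0.0616) or b (0.0547) and with only arrays labelled AGS (0.115), and the non-side population call without non-side population replicate a (0.0807) or d (0.0568). In the fit over every probe set with 1 symbol and without the intensity limit, this probe set passed for side population cells (limma adjusted p 0.0466) and not for non-side population cells (0.0568). With every such probe set but the limit kept, it passed in both (limma adjusted p 0.0332 and 0.0401). None of the 7 other LPP probe sets was called in the fit without the limit. A probe set averaging 175 gave -0.77 ± 0.44 for side population and -1.01 ± 0.44 for non-side population minus unsorted cells, and the others were positive in both.

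Translation genes with a known pyrimidine tract and no listed small nucleolar RNA were all positive relative to unsorted cells and not called: 13 of 13 in side population cells, with a median log2 fold change of 0.27, and 13 of 13 in non-side population cells, with a median of 0.23. Over all genes tested 53.4% and 49.1% were positive, with medians of 0.04 and -0.01. Of the 13, 0 had an unadjusted p under 0.05, where all genes gave 17.2% and 19.6%. EIF3H, a subunit of initiation factor eIF3, averaged 14108 in side population, 13988 in non-side population and 9173 in unsorted cells, with adjusted p-values of 0.304 and 0.336 by limma relative to unsorted cells.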

How the data were processed

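The authors deposited linear intensities of 54675 probe sets on 10 one-colour Affymetrix arrays, and GCOS 1.4 is the software in the submitters' processing notes, with no role given. The trimmed means lay between 500.065 and 500.095, so no scaling was added. Probe sets were named from the platform annotation: 41097 had 1 symbol, 1801 several and 11777 none. The deposited intensities were analysed as log2(value + 6.1), the constant being their 10th percentile, which understates changes of dim genes. A gene was tested when its mean log2 value reached the median over genes (148.5), which kept 9888 of 19775. The test was limma's (version 3.58.1, R 4.3.3, eBayes with a trend on contrasts of lmFit), all 10 arrays and 3 groups in 1 fit, Benjamini-Hochberg over all genes tested and a call at an adjusted p under 0.05. Every adjusted p in the text is from limma. The fit was tested on simulated data. No detection calls were used here. The number of arrays, above all the 2 unsorted ones, limits the precision.

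Members and gene lists were chosen with earlier results of these data known. Values per array were given for the host genes called, the 6 brightest, and in each comparison the 3 of largest fold change and the 3 of smallest p. From each list at most 3 genes of smallest p per comparison could be named. Alternatives were other added constants, no filter and a stricter one, quantile normalization, other probe set rules, eBayes without a trend, subsets of arrays, the replicate letter as a block and each array left out. Those on raised values, on leaving out 2 doubted arrays, on several-symbol and other probe sets, on a random block and on TNRC6B and LPP were chosen after seeing the data. No pair of arrays held identical values.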

Additional observations from a re-analysis of the deposited data

How the results depend on the processing

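The count of host genes called between side population and non-side population cells was 0 under all 26 alternatives. For side population minus unsorted cells 1 host gene was called in the reported fit, 0 with the filter at the 75th percentile (MIR7-3HG was then not tested), 2 with eBayes without a trend, 2 with only the compared groups, 5 with sorted letters a and b, 4 with c and d (2 higher, and DLEU2 and MIR1915HG lower) and 1 to 3 with 1 array left out. For non-side population minus unsorted cells 2 were called, 1 without the filter, 0 with the 75th percentile, 7 with letters a and b, 5 with c and d (4 higher, and DLEU2 lower) and 1 to 3 with 1 array left out. Over all genes, side population minus unsorted gave 242 calls, 100 with the 75th percentile, 431 with every probe set of 1 symbol above the filter, 451 with only the compared groups, 97 with only arrays labelled AGS, 1400 with letters a and b, 1205 with c and d and 10 to 403 with 1 array left out. Non-side population minus unsorted gave 362 calls, 146 with the 75th percentile, 736 with every such probe set, 202 with the compared groups, 2577 with letters a and b, 1523 with c and d, 677 without side population replicate a and non-side population replicate c, and 17 to 665 with 1 array left out. Side population minus non-side population gave 0 calls, 1 with a constant of 32, 982 with letters a and b and 0 to 1 with 1 array left out. The division into letters a and b against c and d had been picked on these data, so counts within it are no separate evidence. The titles give side population and non-side population arrays of 1 letter the same group code without saying what it marks, and unsorted arrays another code, so it was not settled whether letters pair the arrays: 3 of 4 same-letter correlations were above 0.1 (-0.11 to 0.50), and 2 of 4 arrays correlated best with their own letter. With the replicate letter as a block, which also ties unsorted arrays to sorted letters a and b, host gene calls were 5 for side population and 6 for non-side population minus unsorted, all higher, calls over all genes were 746 and 969, and 1 gene was called between the sorted groups. GAS5 was then 2.64 and 3.02 (limma adjusted p 0.000163 and 4.98e-05). With the group codes of the titles as a random block, host gene calls were 1 and 2, calls over all genes 253 and 372 and 1 between the sorted groups, and GAS5 was 1.60 and 1.98 (limma adjusted p 0.273 and 0.149). The cause of these changes was not tested.

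Among the genes named by rule, fold changes that turned sign were not called in the reported fit or after the turn. DLEU2, outside the rule, turned to 0.80 for non-side population minus unsorted cells with letters a and b and was called there (limma adjusted p 0.0374). Gene and letters were picked on these data, so that call is no separate evidence. Most turns of sign were for side population minus non-side population. With only arrays labelled AGS, MIR31HG was 0.010, MIR550A3HG -0.16, SNHG17 -0.048 and SNHG19 -0.16. With letters a and b, MIR570HG was 0.67, SNHG17 -0.19, SNHG19 -0.035 and SNHG33 -0.35. With letters c and d, MIR31HG was 0.23 and MIR550A3HG -0.21. Without side population replicate a and non-side population replicate c, MIR31HG was 0.011, SNHG17 -0.25, SNHG19 -0.15 and SNHG33 -0.079. With 1 array left out, GAS5 ranged from -0.93 to 0.037, MIR31HG from -0.088 to 0.098, SNHG17 from -0.16 to 0.30, SNHG19 from -0.059 to 0.31 and SNHG33 from -0.054 to 0.23. For non-side population minus unsorted, SNHG17 was -0.39 with letters c and d and ranged from -0.13 to 0.32 with 1 array left out, and MIR1915HG was 0.027 with the replicate block. The cause was not tested.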
